A study of Triticum aestivum with 4 samples.

Results

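Chromatin genes of the wheat flag leaf were examined on all probe sets that the array's annotation assigns to 4 core histone genes (H2A-9, H2A-3, wcH2B-6 and wcH2B-8) and to Hmgb3, a high mobility group protein. The members were chosen by gene name, as a symbol or a gene-table synonym. They comprised 5 of the 771 genes and 19 of the 1273 probe sets that carry a gene symbol, on an array with 61179 probe sets other than AFFX controls. The annotation files them under LOC543333 (Hmgb3), LOC732714 (H2A-9), LOC732713 (H2A-3), LOC543183 (wcH2B-6) and LOC543184 (wcH2B-8). Plants of the wheat cultivar TAM107 were moved from the field to pots before flowering, and flag leaves were collected at about 10 days after pollination. There were 2 arrays from control leaves under normal conditions and 2 arrays from leaves of plants held for 1 h at 40 °C in a growth chamber. Whether controls also spent time in a chamber is not in the labels, and the move and the heat therefore cannot be told apart. Nor do the labels tie replicates to separate plants, and p-values then measure only an array-to-array spread that may be technical.

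In the nucleosome, DNA is wound around an octamer of core histones, in which H2A pairs with H2B and H3 pairs with H4. Most core histone RNA is made while DNA is replicated, so dividing tissue carries more of it than mature leaf, whereas some variant histones are made throughout the cell cycle. HMGB proteins are abundant non-histone chromatin proteins that bind and bend DNA through an HMG box. Wheat is hexaploid and its histone genes form large families of near-identical copies. A probe set, a group of short probes read together, can therefore report several copies, and names ending in _x_at or _s_at mark those whose probes can match several transcripts. Of the 19 probe sets, 12 were of that kind, both of Hmgb3 among them. The 19 were designed on 14 target sequences, so some pairs read the same target and are not independent.

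Values are linear MAS5 signals scaled by the authors to a common array level. Log2 signals over tested probe sets correlated at r = 0.979 between the control arrays, at 0.977 between the heat arrays and at 0.914 to 0.915 between groups. These run over probe sets of one array design, not over independent replicates. Those with a mean log2 signal of 6.11 or more (a signal of 69.1), 30590 in all, were tested with limma, with Benjamini-Hochberg adjustment over all of them and a threshold of 0.05. The leaf label was checked against photosynthesis genes: all 5 leaf markers with a name were bright, with signals of 8105 to 61145 over the 4 arrays. Summed, they gave 161351 and 176722 in control and 218623 and 211777 in heat, with 3 of 5 higher and 1 lower in limma. Of 18 grain protein genes 7 passed the filter and 0 of them passed the threshold in limma, also 0 at an unadjusted p below 0.05. Signals of the grain list ran from 1.27 to 7975, the upper end near the lowest leaf marker reading. Summed over the list they gave 8944 to 9156 on the 4 arrays. No named flower gene of the marker list was on the array. In bulk leaf, fewer cells of a type and less RNA per cell cannot be told apart.

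Hmgb3 fell on both of its probe sets, the histones H2A-9 and wcH2B-8 fell on some of theirs, and H2A-3 and wcH2B-6 passed on none. Of the 19 probe sets 13 were bright enough to test, and 6 of these were lower in heat and 0 were higher (limma, adjusted p below 0.05). Of all tested probe sets 22.9% were called lower and 14.2% higher, 37.0% in all. Without Hmgb3, 4 of 11 histone probe sets were lower. A called probe set of H2A-9 passed the brightness filter only through its control values, which favours a fall. Leaving that probe set out gives 5 of 12 members and 3 of 10 histone probe sets. The histone count of 11 tested fell to 1 (9.09%) under quantile normalization and under cyclic loess. Of all tested probe sets, 20.6% and 17.9% were then called lower. Over all 4 arrays 7 of the 11 had an unadjusted p below 0.05 in limma. That share was not worked out for all tested probe sets, of which 37.0% passed the adjusted threshold in either direction. No reading is drawn from that count. Without single arrays the brightest probe set ranged from log2 -0.87 to -0.72 for H2A-9 and from -0.96 to -0.45 for wcH2B-8. The log2 fold change was below 0 for all 13 tested members, a sign found in 60.8% of all tested probe sets. The median over the 13 was -0.70 and over the 11 histone probe sets -0.39, against -0.15 over all tested probe sets. Both heat arrays lay below both control arrays on 11 of the 13, and this held for 43.6% of all tested probe sets. Median centring moved the median of all tested probe sets to -0.03 and the calls on the array from 6993 lower and 4339 higher to 4958 lower and 5033 higher.

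**Figure D1:**
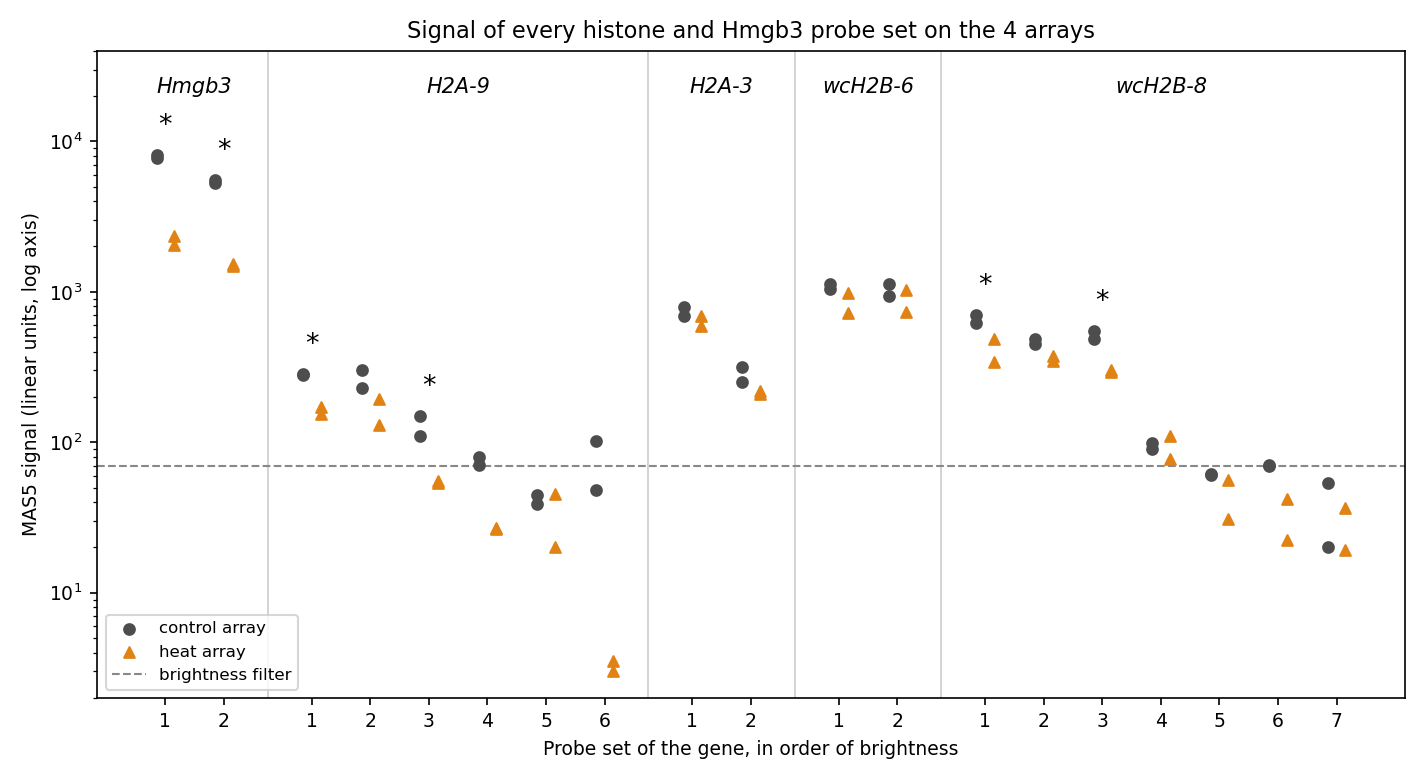
MAS5 signal (linear units on a log axis) of each of the 19 probe sets on the 2 control arrays (dark circles) and the 2 heat arrays (orange triangles), by gene and in order of brightness within a gene. Stars mark the 6 tested probe sets called lower in limma and the dashed line is the brightness filter at a signal of 69.1; Hmgb3 shows the widest gap among the bright probe sets, and most histone pairs lie close together.

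Hmgb3 had bright signals in both groups. Its brightest probe set, Ta.30768.1.S1_x_at, read 7758 and 8105 in control and 2362 and 2048 in heat. The other one, Ta.30768.3.S1_x_at, read 5543 and 5318 in control and 1487 and 1531 in heat. On either probe set each heat array stood far below each control array. Arrays of one group lay close together, apart from the heat arrays on the first. Their log2 SD was 0.146, against a median of 0.048 for probe sets of like brightness. The first fell from 7931 ± 245 to 2205 ± 222 (SD, n = 2 arrays per group), which is 3.61-fold with a 95% interval of 3.17 to 4.10 (log2 -1.85 ± 0.08 SE, adjusted p = 1.91e-06 in limma). The second fell from 5431 ± 160 to 1509 ± 31.2 (SD, n = 2), or 3.60-fold with an interval of 3.24 to 3.99 (log2 -1.85 ± 0.06 SE, adjusted p = 5.97e-07 in limma). The log2 fold changes of both probe sets differed by -0.0031 ± 0.14 SE. They come from different target sequences, but as _x_at probe sets they may share transcripts, so they are not 2 independent measurements of 1 gene.

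Most probe sets as bright as those of Hmgb3 changed far less. Around the first probe set, 905 other tested probe sets lay within 0.25 of its mean log2 signal. Their median log2 fold change was -0.07, 37.7% of them were called lower, and 12 of the 905 (1.33%) had a fold change as low as that of Hmgb3. Around the second, 10 of 1189 (0.841%) were as low, and the median was again -0.07. Measured against the median at its own brightness, Hmgb3 was lower by log2 -1.78 on each probe set. The fall held at the threshold in each alternative fit that could be made, and leaving out single arrays gave log2 -1.95 to -1.75 on the brightest probe set. The fit without shared probe sets gave no value, since Hmgb3 has no other kind.

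Another probe set on the array, Ta.30768.2.S1_x_at, shares the identifier number of the Hmgb3 probe sets but has no gene name in the annotation. It was looked up after the values of Hmgb3 were known and is not counted as a member. Its signals were 3712 and 3500 in control and 1353 and 1390 in heat, so the groups were separate here too. The change was log2 -1.39 ± 0.07 SE (adjusted p = 4.32e-06 in limma).

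H2A-9, a core histone of the H2A family, had 6 probe sets, of which 3 were tested and 2 were called lower, 1 of them on a probe set that passed the filter only through its control values. The brightest, Ta.27657.7.S1_x_at, read 284 and 278 in control and 171 and 154 in heat. All heat values were thus below all control values, and the control arrays were nearly equal. The fall was 1.73-fold, from 281 ± 4.27 to 163 ± 11.9 (SD, n = 2), with a 95% interval of 1.22 to 2.46 (log2 -0.79 ± 0.22 SE, adjusted p = 0.0244 in limma). The next, Ta.27657.6.S1_x_at, read 303 and 229 in control and 193 and 130 in heat. The groups did not overlap there either, but the spread within each was wide, and log2 -0.74 ± 0.29 SE did not pass (adjusted p = 0.082 in limma). Without heat replicate 1 it passed at log2 -1.02 (adjusted p = 0.0315 in limma), and without heat replicate 2 it stood at -0.45. The third, Ta.27657.1.S1_at, the only tested one of H2A-9 whose name does not mark it as shared, read 110 and 148 in control and 55.6 and 53.8 in heat. It was called lower at log2 -1.22 ± 0.40 SE (adjusted p = 0.0455 in limma), with heat values under the filter signal of 69.1. This is the probe set that passed only through its control values, and the size of its change is uncertain.

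Against probe sets of like brightness the changes of H2A-9 were moderate. On the brightest probe set, the 2927 others within 0.25 log2 units had a median of -0.25, and 16.9% of them were called lower. A fold change as low as that of H2A-9 was found in 15.8% of them. For the second probe set that share was 18.4%, and for the third 8.41% of 3709. Around the third only 5.18% were called lower, and dim probe sets varied more between arrays: the median SD of the neighbours on the control arrays was 0.29 on the log2 scale there and 0.04 around Hmgb3. The call on the brightest probe set was lost under quantile normalization (log2 -0.60), cyclic loess (-0.58) and unmoderated t statistics (-0.79). Leaving out control replicate 1 (-0.77) or 2 (-0.81) or heat replicate 2 (-0.72) also ended it. The call of Ta.27657.1.S1_at was lost without any single array (log2 -1.44 to -1.005) under each of the 3 other scalings, and with no filter.

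H2A-3, another H2A histone, did not pass on either of its probe sets. Its brightest probe set, Ta.27192.1.S1_s_at, read 794 and 689 in control and 594 and 685 in heat. The higher heat array came close to the lower control array, so the groups were barely apart. The change was log2 -0.21 ± 0.13 SE (adjusted p = 0.244 in limma), with a 95% interval from -0.52 to 0.09. The second probe set for the same target, Ta.27192.1.S1_at, read 317 and 250 in control and 210 and 219 in heat. It stood at log2 -0.39 ± 0.22 SE (adjusted p = 0.2 in limma), with an interval from -0.89 to 0.11. Both intervals include no change and a fall of more than 1.4-fold (1.43 and 1.86 at their lower ends). Among probe sets of like brightness, 46.2% and 37.5% were as low as these, and the distances from the like-brightness medians were -0.04 and -0.16.

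wcH2B-6, a histone of the H2B family, also passed on neither of its probe sets. Ta.27708.1.S1_at read 1135 and 1036 in control and 980 and 728 in heat, with all heat values lower. Its partner on the same target, Ta.27708.1.S1_x_at, read 1118 and 942 in control and 730 and 1032 in heat, so that the groups overlapped. On this pair the heat arrays changed places, since heat replicate 1 was the higher one on the first and the lower one on the second. The log2 fold changes were -0.36 ± 0.15 SE (adjusted p = 0.0954) and -0.24 ± 0.17 SE (adjusted p = 0.312 in limma). The 95% intervals ran from -0.70 to -0.02 and from -0.64 to 0.16. Of probe sets as bright, 31.5% and 41.1% were as low. The first passed without heat replicate 1 (log2 -0.57), and the second changed sign there (0.0087) and passed without heat replicate 2 (-0.49).

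wcH2B-8, the other H2B gene, had 7 probe sets, of which 4 were tested and 2 were called lower. The brightest, Ta.7378.1.S1_x_at, read 622 and 701 in control and 483 and 340 in heat. The groups were separate, with heat arrays that differed from each other by more than the control arrays did. It fell 1.63-fold, with a 95% interval of 1.21 to 2.20 (log2 -0.70 ± 0.19 SE, adjusted p = 0.0209 in limma). The other called probe set, Ta.7378.35.S1_x_at, read 486 and 546 in control and 300 and 295 in heat. It fell 1.73-fold from 516 ± 42.9 to 297 ± 3.35 (SD, n = 2), with an interval of 1.35 to 2.22 (log2 -0.79 ± 0.15 SE, adjusted p = 0.00528 in limma). That call was kept under the 3 other scalings (log2 -0.67 to -0.61) and lost without control replicate 2 (-0.71) and with unmoderated t statistics. The call on the brightest probe set was lost in more settings, among them quantile normalization (-0.56), cyclic loess (-0.53), eBayes without the trend (-0.70) and the removal of control replicate 1 (-0.79), control replicate 2 (-0.62) or heat replicate 2 (-0.45).

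The tested probe sets of wcH2B-8 whose names do not mark them as shared did not pass. Ta.7378.1.S1_at, on the same target as the brightest, read 487 and 447 in control and 376 and 346 in heat. Its groups were separate, but log2 -0.37 ± 0.15 SE did not pass (adjusted p = 0.0907 in limma). Ta.7378.21.S1_at read 99.2 and 89.7 in control and 110 and 77.1 in heat, so the heat values enclosed the control values. At log2 -0.03 ± 0.38 SE it was the tested member nearest to no change, and its sign turned under quantile normalization (0.11), median centring (0.09) and cyclic loess (0.15). Probe sets of like brightness were as low in 16.6% and 14.0% of cases for the pair that was called, and in 35.0% and 59.4% for these.

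**Figure D2:**
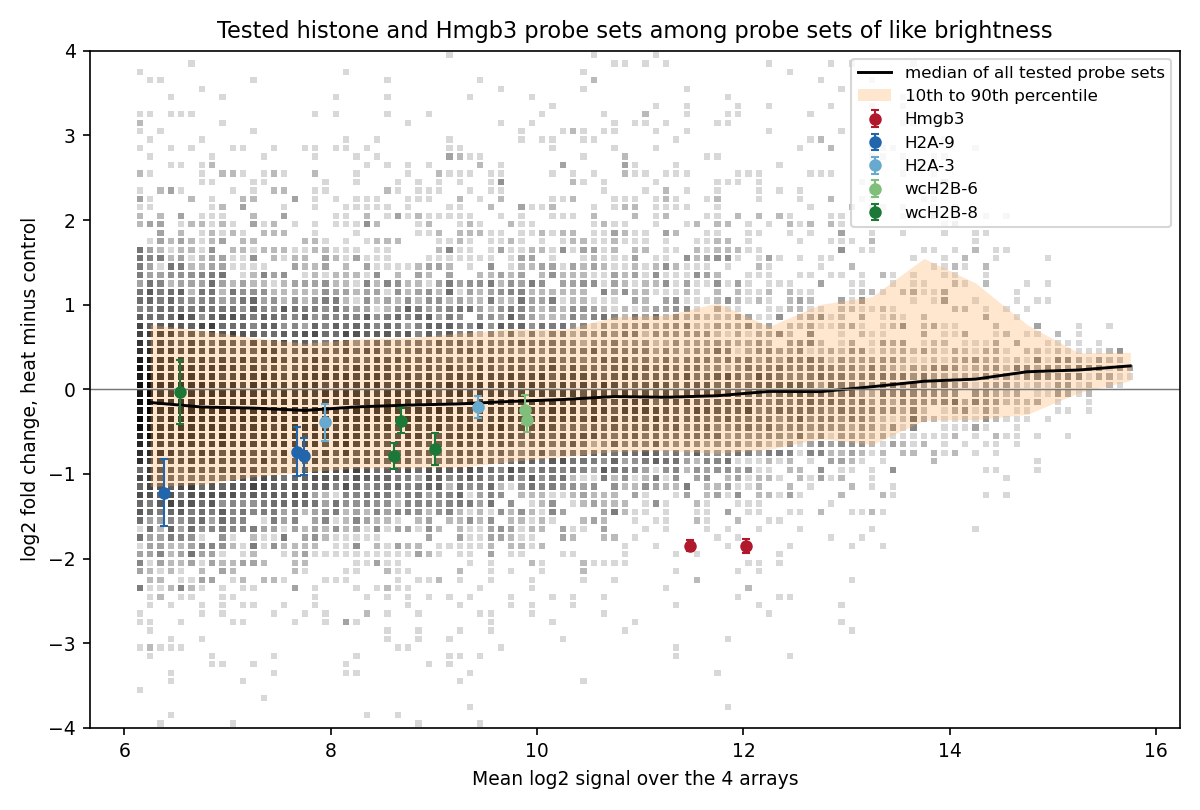
Log2 fold change (heat minus control) against mean log2 signal for the 13 tested members (coloured points, bars are limma SE) over all other tested probe sets (grey squares, darker where more probe sets fall; values beyond 4 either way are not drawn). The black line is the median and the orange band the 10th to 90th percentile in steps of brightness; both Hmgb3 points lie far below the band and 10 of the 11 histone points lie under the line, nearly all of them inside the band.

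Of the 13 tested members 12 lay below the median of probe sets of like brightness, which by construction has as many probe sets under it as over it. The exception was Ta.7378.21.S1_at of wcH2B-8, 0.16 above. The distances of histone probe sets below that median ran from -0.04 (H2A-3) to -1.05 (the dim probe set of H2A-9). Under the deposited and 3 other scalings, 12 of 13 tested members kept a log2 fold change below 0, and 3 were called lower under all 4, both of Hmgb3 and Ta.7378.35.S1_x_at of wcH2B-8. Of all tested probe sets 60.8% were below 0 as deposited, and 16.2% to 22.9% were called lower, by scaling. The shares that stayed so under all 4 scalings at once were not worked out.

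The change of Hmgb3 was set against that of each histone gene within each array, as the difference of log2 signals of the brightest probe sets. A single scaling factor per array cancels there, but scaling that depends on brightness does not. Under quantile normalization Hmgb3 stood at log2 -1.91 and H2A-9 at -0.60, against -1.85 and -0.79 as deposited. On the deposited signals, the log2 fold change of Hmgb3 minus that of the histone gene was -1.06 ± 0.05 SE for H2A-9 and -1.15 ± 0.16 for wcH2B-8. It was -1.49 ± 0.15 for wcH2B-6 and -1.64 ± 0.25 for H2A-3. In all 4 cases the values of both heat arrays lay below those of both control arrays. The same Hmgb3 values, with their large fall, enter all 4 differences, so these are not 4 separate observations. An exact permutation test of 2 against 2 arrays, two-sided, cannot give a p below 0.333, which is what each of the 4 reached (0.571 after adjustment over the 12 pairs compared), so that test cannot separate these genes at any size of difference. Among the 8 pairs of probe sets of 1 gene, the difference in log2 fold change between the brightest and another ran from -0.67 (wcH2B-8) to 0.43 (H2A-9), with exact permutation p of 0.333 to 1.

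The 6 probe sets below the brightness filter belonged to H2A-9 and wcH2B-8, and their log2 fold changes were also below 0. The median over all 61179 probe sets with no filter was -0.12, and the share of them below 0 was not worked out. When fitted with no filter 1 of these 6 was called lower, and 9.75% of all probe sets were. That one, Ta.27657.12.S1_at of H2A-9, read 102 and 48.2 in control and 3.01 and 3.50 in heat. On the heat arrays 3.3% and 5.17% of probe sets were dimmer than this, so no fold change is given. Ta.27657.14.S1_x_at of H2A-9 read 79.5 and 70.1 in control and 26.5 and 26.9 in heat, a tight separation that did not pass at this brightness (adjusted p = 0.2 in limma without a filter). Its partner on the same target, Ta.27657.14.S1_s_at, read 44.9 and 39.0 against 45.6 and 20.1, with overlap. The 3 dim probe sets of wcH2B-8 had control signals of 20.1 to 70.9 and heat signals of 19.1 to 56.3. Over all 19 probe sets, both heat arrays were below both control arrays on 15 and the groups overlapped on 4. The share so separated was worked out only for tested probe sets (43.6%), so the count over all 19 has no share beside it.

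Other chromatin genes were searched by gene symbol and synonym only, not by gene title or description, so genes filed otherwise could be missed. Among those with a name, the search found 1 further histone, H2A-2, and no linker histone, H3 or H4. It found no other HMG protein and 0 genes of the list for chromatin modification, DNA replication and the cell cycle. H2A-2 was too dim to test, with signals of 45.8 and 42.8 in control and 39.2 and 34.2 in heat. Its groups were separate, at log2 -0.27 ± 0.70 SE in limma without a filter. Markers of dividing cells other than the histones were therefore not found by the name search, and the part of cell division in these values was not tested.

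Unnamed probe sets that share an identifier number with the histone probe sets did not move one way. They were looked up after the member values were seen, and the annotation does not say which genes they represent. Of 31 that share the number of wcH2B-8, 28 were tested, 8 were called lower and 6 higher, with log2 fold changes from -3.17 to 1.19 and a median of -0.12. The array as a whole was mixed too, with 22.9% of all tested probe sets called lower, 14.2% called higher and a median of -0.15. Of 8 that share the number of H2A-9, 3 were tested and 0 were called in limma, with values from -0.41 to 0.06. H2A-3 and wcH2B-6 had 0 such probe sets.

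The genes with the most similar profile were sought among the 71 tested genes with a name, by the Euclidean distance between log2 signals on the 4 arrays, each centred on its mean. With 4 arrays this distance rests mostly on the difference between groups. Nearest to Hmgb3 were the beta-tubulin genes tubb3 (distance 0.47, log2 -1.43) and Tubb5 (0.85, log2 -1.005), whose products form microtubules. Nearest to H2A-9 was SAHH, adenosylhomocysteinase of the methyl cycle (0.17, log2 -0.79), and then Tubb5 (0.22). The closest to wcH2B-8 were EM, a seed maturation gene (0.21, log2 -0.84, adjusted p = 0.195 in limma), and H2A-9 itself (0.30). AdSS, adenylosuccinate synthetase of purine synthesis (0.16, log2 -0.24), and RPS29, a ribosomal protein gene (0.21, log2 -0.34), lay nearest to H2A-3. For wcH2B-6 the nearest were a gliadin gene (gli-2, 0.15) and XTH, a xyloglucan-modifying cell wall enzyme (0.16), neither of which passed the threshold.

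**Figure D3:**
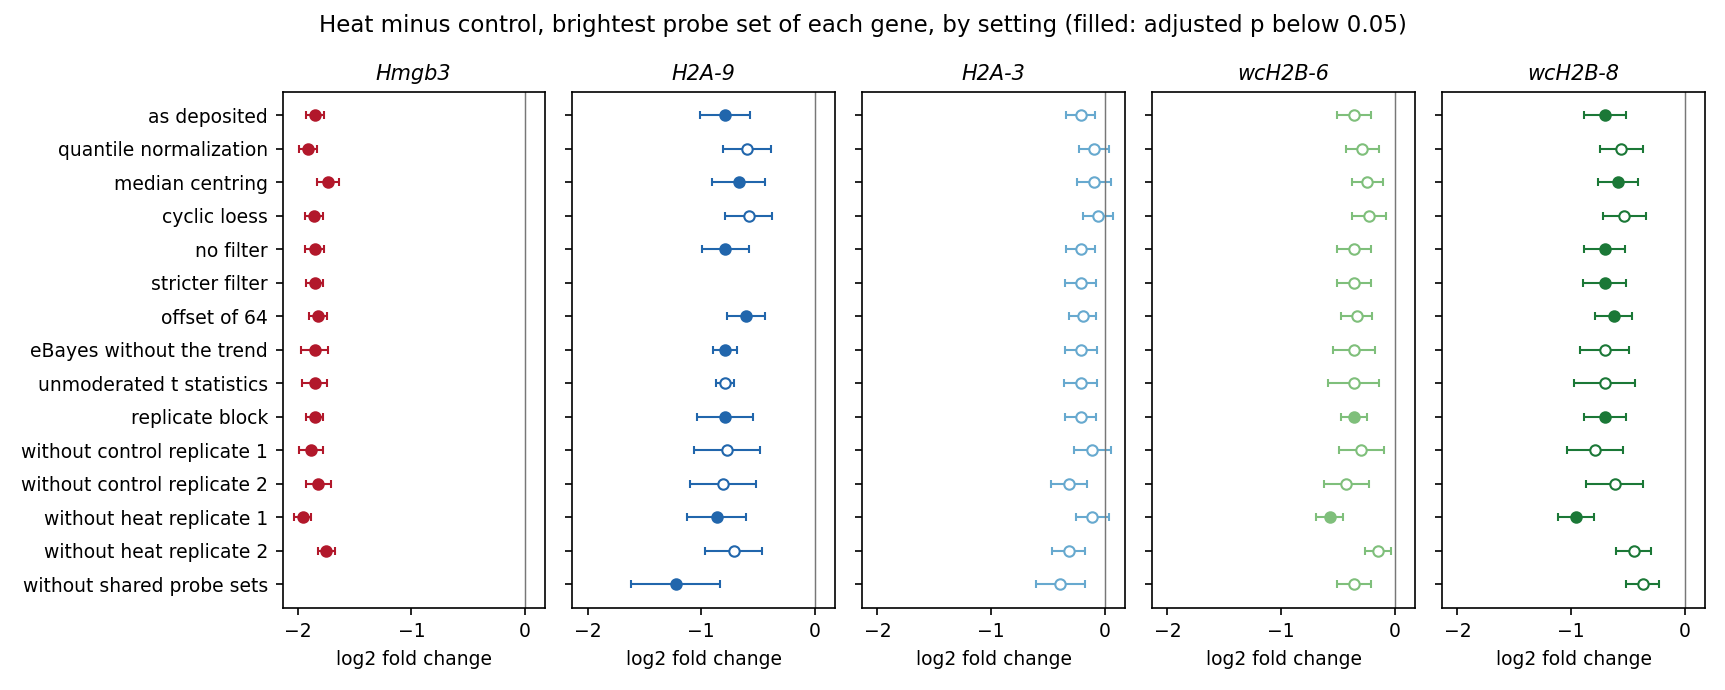
Log2 fold change (heat minus control, bars are SE) of the brightest probe set of each gene under the fit as deposited and 14 alternatives, with filled points where adjusted p was below 0.05; without shared probe sets another probe set of the gene is shown, and a missing point means that no value could be had. Hmgb3 is filled throughout, and H2A-9 and wcH2B-8 change between filled and open. The points of wcH2B-6 change too but are open in most settings, and H2A-3 is open throughout at values between -0.39 and -0.06.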

How the data were processed

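RNA from flag leaves was hybridised to 4 single-colour Affymetrix wheat arrays. Per the submitters' processing notes, Affymetrix Expression Console 1.1 and MAS5 were used; no source used here gives the settings. The deposited values are linear signal intensities, 1 per probe set and array, and the authors' scaling left a trimmed mean (2% off each end) of 500.1 on each array. Detection calls were not used. Arrays have no read depth, and precision is limited by their number.

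The table held 61290 probe sets, of which 111 AFFX controls were left out (64 reporter controls without that prefix stayed in). Log2 intensity was tested, heat minus control, with limma 3.58.1 in R 4.3.3 (lmFit, eBayes with an intensity trend; 2 residual and 5.45 prior degrees of freedom), two-sided, for 30590 probe sets with a mean log2 signal at or above the median. The fit was tested on simulated data. Gene names came from the platform annotation and the synonyms of the RefSeq gene table (IWGSC CS RefSeq v2.1), from which no coordinates are given. The brightest probe set stands for a gene, and all others are reported. Like brightness means within 0.25 of the mean log2 signal. The members and lists were chosen with earlier results of these data known. The genes named are the members, other histone, HMG and chromatin genes with a name, and the 2 named genes of most similar profile per member; unnamed probe sets with a member's identifier number were added after the values were seen. Alternatives were other scalings, filters, an offset, other variance models, a replicate block, each array left out, and no shared probe sets. The planned promoter motif search was not run, since promoter sequences were not used here.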

Additional observations from a re-analysis of the deposited data

How the results depend on the processing

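Hmgb3 kept its call under each alternative on all 4 arrays that gave a value, narrowly with unmoderated t statistics (adjusted p = 0.0465 on the brightest probe set). H2A-3 (brightest probe set) kept its lack of a call. The call of H2A-9 ended with quantile normalization (log2 -0.60), cyclic loess (-0.58) and unmoderated t statistics (-0.79), and that of wcH2B-8 with these (-0.56, -0.53 and -0.70), eBayes without the trend (-0.70) and on its brightest unshared probe set (-0.37). Member probe sets called lower numbered 6 of 13, and 3 under quantile normalization, 3 under cyclic loess, 2 with unmoderated t statistics, 1 of 5 tested without shared probe sets and 2 to 7 without single arrays. Histone probe sets called lower numbered 4 of 11, and 1 under quantile normalization, 1 under cyclic loess, 2 of 6 tested with the stricter filter, 0 with unmoderated t statistics (7 had an unadjusted p below 0.05 in the moderated fit), 1 of 5 tested without shared probe sets and 0 (without control replicate 2) to 5 without single arrays. The array as a whole had 11332 calls, 2593 (1317 lower, 1276 higher) with unmoderated t statistics, 6998 (4338 and 2660) without shared probe sets, a smaller tested set, and 7628 to 10665 without single arrays (4167 to 6783 lower, 3447 to 3882 higher). The brightest probe sets ranged without single arrays from log2 -0.87 to -0.72 for H2A-9, from -0.96 to -0.45 for wcH2B-8, from -0.57 to -0.15 for wcH2B-6 and from -0.32 to -0.11 for H2A-3. Signs turned on Ta.7378.21.S1_at of wcH2B-8 (quantile 0.11, median centring 0.086, cyclic loess 0.15, -0.29 to 0.23 without single arrays) and Ta.27708.1.S1_x_at of wcH2B-6 (-0.49 to 0.0087 without single arrays). Arrays with the same replicate number did not deviate together (r = 0.011 across probe sets). The replicate block called 6 members lower (46.2%, against 23.4% of all tested probe sets) and gave 11603 calls in all. There wcH2B-6 passed at log2 -0.36 and Ta.27657.1.S1_at of H2A-9 lost its call. Causes of these changes were not tested. The stricter filter left H2A-9 untested. Of all tested probe sets, 20.6% were called lower under quantile normalization and 17.9% under cyclic loess. The member share was 23.1% in both, not far above the array, and the histone share was 9.09%, below it. Without shared probe sets 20.4% of all tested probe sets were called lower, so 1 of 5 was no more than on the array. That 1 was Ta.27657.1.S1_at of H2A-9, which passed the brightness filter only through its control values. With unmoderated t statistics 15.4% of members and 4.31% of all were called lower.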
